A study of Mus musculus with 37 samples.

Results

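Tor1b and Lck were followed through oocytes, eggs and embryos that lacked the maternal product of Bap1, together with the other torsin genes Tor1a, Tor2a and Tor3a. These are 5 of the 55401 genes measured. Tor1b and Lck were chosen by measured values, as genes whose RNA was most reduced in knockout late 2-cell embryos, and Tor1a, Tor2a and Tor3a because they are paralogues of Tor1b. The late 2-cell values of Tor1b and Lck are therefore given as a description, with no test. At earlier stages both were below the filter on low values (1 FPKM in 2 or more libraries of a fit), so any test there is from an alternative setting. Both were tested at embryonic day 6.5, and the paralogues were tested where they passed the filter.

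Torsins are ATPases of the AAA+ family that sit in the lumen of the endoplasmic reticulum and the nuclear envelope. They need an activating cofactor, LAP1 (encoded by Tor1aip1) at the nuclear envelope or LULL1 (encoded by Tor1aip2) in the endoplasmic reticulum, and are best known for TOR1A, whose mutation causes an early-onset dystonia. LCK is a tyrosine kinase of the SRC family that is known for starting signalling at the T cell receptor. BAP1 is a ubiquitin hydrolase that removes ubiquitin from histone H2A. In mouse embryos the main wave of transcription from the new genome comes in the 2-cell stage, while oocytes and 1-cell embryos run largely on RNA stored by the mother.

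RNA abundance was measured by RNA-seq in 37 libraries. Controls came from Bap1flox/flox females and knockouts from Gdf9-iCre, Bap1flox/flox females, in which the Gdf9 promoter drives iCre in oocytes. Embryos came from these females mated to B6 males at the early stages and to PWK males for embryonic day 6.5, so an embryo from a knockout female is a maternal knockout with a paternal genome from a male for which the labels name no floxed allele. Stages before implantation were the fully grown oocyte (FGO), the MII egg, the late 1-cell embryo (L1C), the early 2-cell embryo (E2C) and the late 2-cell embryo (L2C). E2C had 3 libraries per genotype and each of the other stages 2 from controls and 3 from knockouts. These 26 libraries were made from total RNA, and per the labels embryos were cultured in KSOM medium. At embryonic day 6.5 polyadenylated RNA was sequenced from the epiblast (EPI) and the visceral endoderm (VE), with 2 libraries per genotype, and from the extraembryonic ectoderm (EXE), with 1 library from controls and 2 from knockouts. The labels give no age of the females, no number of cells per library and no statement that replicates came from separate females, so p-values measure the spread between these libraries, which may be technical. In such bulk samples fewer cells of a type and less RNA per cell cannot be told apart.

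Values are FPKM (fragments counted on a gene, per kilobase of its length and scaled to the library), which can be compared between genes but from which the read depth cannot be recovered. Differences are given on the log2(FPKM + 1) scale, on which the change of a low gene looks smaller than it is. FPKM summed to between 300668 and 430784 in the 26 early libraries, and at L2C to between 404518 and 430784 in controls and between 371188 and 381737 in knockouts. Bap1 itself lay between 16.3 and 29.9 FPKM in every early control library. In knockouts it lay between 3.76 and 5.68 FPKM from FGO to L1C, between 6.67 and 7.05 FPKM at E2C and between 9.69 and 11.7 FPKM at L2C. It was lower at each of these stages in limma with Benjamini-Hochberg adjustment, at an adjusted p of 0.00617 in FGO and of 0.00118 or less at the other stages, and its FGO call was lost without control replicate 2 (adjusted p = 0.0565).

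Tor1b (ENSMUSG00000026848.14) lies on chromosome 2, 30952959 to 30959015, on the forward strand of GRCm38 in GENCODE M21. Tor1a (ENSMUSG00000026849.18) lies beside it at 30960627 to 30967933 on the reverse strand, so the genes point at each other with 1612 bases between their ends. Tor2a (ENSMUSG00000009563.16) is on the same chromosome at 32757234 to 32762244, forward strand, and overlaps Ttc16 on the reverse strand. Tor3a (ENSMUSG00000060519.11) is on chromosome 1, 156653617 to 156674356, reverse strand. Lck (ENSMUSG00000000409.14) is on chromosome 4, 129548344 to 129573641, reverse strand. The longest coding sequences of Tor1b and Tor1a, of 1008 and 999 bases, were identical at 72.7% of aligned bases. Tor1b matched Tor2a at 65.1% and Tor3a at 65.7% of aligned bases. None of the words of 50 bases in the exons of Tor1b, Lck, Tor1a or Tor3a occurs in another annotated gene, so reads of that length tell these paralogues apart. Of such words in Tor2a, 9.58% are shared, with Ttc16 among others, and its counts are less certain for that reason.

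RefSeq start sites on GRCm38.p6 gave the 250 bases before the start of 3 of the 5 genes, shown here because they set a gene silent until L2C (Lck, at both of its start sites) beside a torsin stored in oocytes (Tor1a) and one that is low until L2C (Tor2a). Each reads 5' to 3' on the strand of its gene, and CpG dinucleotides, the sites of DNA methylation, are in capitals. The windows are chr4:129573642-129573891 (reverse) and chr4:129558373-129558622 (reverse) for the distal and proximal start of Lck, chr2:30967919-30968168 (reverse) for Tor1a and chr2:32756984-32757233 (forward) for Tor2a.
Lck distal: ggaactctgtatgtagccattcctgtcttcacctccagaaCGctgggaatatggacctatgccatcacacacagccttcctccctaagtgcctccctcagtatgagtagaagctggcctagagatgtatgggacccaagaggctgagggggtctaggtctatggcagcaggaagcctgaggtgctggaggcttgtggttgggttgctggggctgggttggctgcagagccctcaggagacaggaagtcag
Lck proximal: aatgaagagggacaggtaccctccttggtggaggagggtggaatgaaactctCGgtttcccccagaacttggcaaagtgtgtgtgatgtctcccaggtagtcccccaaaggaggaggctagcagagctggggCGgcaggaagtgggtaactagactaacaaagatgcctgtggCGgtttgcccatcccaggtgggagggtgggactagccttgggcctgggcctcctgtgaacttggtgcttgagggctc
Tor1a: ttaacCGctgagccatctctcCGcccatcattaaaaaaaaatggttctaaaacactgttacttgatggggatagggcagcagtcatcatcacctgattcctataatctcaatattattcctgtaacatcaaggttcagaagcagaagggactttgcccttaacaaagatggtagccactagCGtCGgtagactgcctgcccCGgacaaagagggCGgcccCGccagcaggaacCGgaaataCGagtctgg
Tor2a: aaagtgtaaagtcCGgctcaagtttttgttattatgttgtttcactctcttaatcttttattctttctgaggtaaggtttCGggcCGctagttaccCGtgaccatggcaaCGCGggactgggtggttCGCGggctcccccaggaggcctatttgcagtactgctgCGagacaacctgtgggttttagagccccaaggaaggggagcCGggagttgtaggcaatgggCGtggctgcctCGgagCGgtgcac

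The distal Lck window holds 1 CpG, and 92.1% of 32851 promoter windows of this length hold at least as many. The proximal Lck window holds 3, the Tor1a window 9 and the Tor2a window 13, beside a median of 6 over all windows. The letters GGGCGG, the GC box bound by SP1-type factors, were searched on both strands and occur in 32.7% of all windows. They were found at 2 places in the Tor1a window, at 1 in the proximal Lck window and at none in the others. The letters GGATTA, a homeobox motif of the OBOX type present in 6.25% of windows, were not found in these 4 windows on either strand. Values per gene do not say which Lck start was in use.

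Tor1b RNA was close to nothing before L2C in both genotypes. Control libraries measured 0.0639 and 0.0739 FPKM in FGO, 0.146 and 0.147 FPKM in MII, 0.109 and 0.0613 FPKM in L1C, and 0.176, 0.0465 and 0.114 FPKM in E2C. Knockout libraries measured 0.0663, 0.0827 and 0.0808 FPKM in FGO, 0.189, 0.0626 and 0.0426 FPKM in MII, 0, 0.123 and 0.0777 FPKM in L1C, and were listed at 0 in all 3 E2C libraries. The genotypes overlapped in FGO, MII and L1C, while every E2C control lay above every E2C knockout, as in 16.3% of the genes tested at E2C. With no filter on low values that E2C difference was -0.15 on the log2 scale, with an unadjusted p of 0.0221 and an adjusted p of 0.233 in limma, so it was not called.

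At L2C the control libraries held 37.7 and 40.4 FPKM of Tor1b and the knockout libraries 1.05, 2.01 and 3.29 FPKM. Each knockout library lay far below both controls, yet above every library of an earlier stage. The means were 39.1 ± 1.94 FPKM (SD, n = 2) and 2.12 ± 1.12 FPKM (SD, n = 3), so knockouts held 5.41% of the control level, an 18.5-fold lower mean. On the log2 scale the difference was -3.75. From E2C to L2C the mean log2 value moved by 5.17 in controls and by 1.57 in knockouts.

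Lck, the kinase, was listed at 0 in every MII library of both genotypes and in both controls of FGO and L1C. The few values above 0 before L2C were 0.0635 FPKM in 1 FGO knockout, 0.0673 FPKM in 1 L1C knockout, and 0.154 and 0.0587 FPKM in E2C controls, with all E2C knockouts at 0. At L2C the controls measured 6.84 and 10.3 FPKM, and the knockouts 0, 0.683 and 0.393 FPKM. The groups did not overlap, which held in the same direction for 30.6% of the genes tested, and 1 knockout library was still listed at 0. Knockouts held 4.19% of the control mean, a log2 difference of -2.82, which depends on the pseudocount and was -4.65 with 0.1 in place of 1. Lck passed the filter on low values at L2C through its control libraries alone, and the spread between the 2 controls was wide, at 8.57 ± 2.44 FPKM (SD, n = 2).

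**Figure D1:**
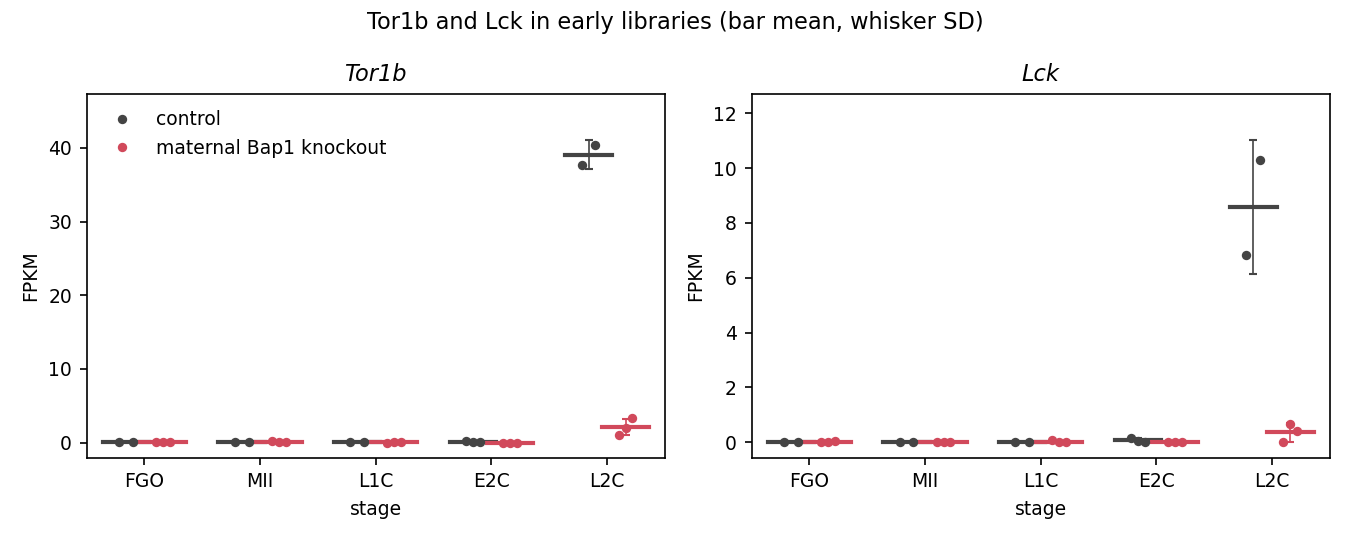
FPKM of Tor1b and Lck in each of the 26 early libraries by stage and genotype, with bars at the group mean and whiskers of 1 SD, on linear axes that differ between panels. Both genes lie near 0 up to E2C, and at L2C the 2 controls stand apart from the 3 knockouts, at 37.7 and 40.4 against 1.05 to 3.29 FPKM for Tor1b.

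Among the 12718 genes tested at L2C, of which 19.5% were called lower and 19.0% higher, Tor1b had the lowest log2 difference. With libraries scaled to the same total (TPM), more genes passed the filter. Of 16107 genes tested there, 1937 were called lower and 2981 higher, in place of 2476 and 2417 of 12718. The median difference of all genes was 0.15 in place of 0.03. Lck came 8th. Next after Tor1b came the pseudogene Gm38706 at -3.54 and Prlr, the prolactin receptor, at -3.13. Prlr measured 24.5 FPKM in controls and 1.91 FPKM in knockouts, but unlike Tor1b reached 18.4 FPKM in a library before L2C. Just before Lck came the pseudogenes Gm21038 at -2.85 and Gm46992 at -2.84, and just after it Stmn3, a stathmin that binds tubulin, at -2.78.

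Genes that were off before L2C differed widely in how much of the control level they reached in knockouts. There were 37 coding genes under 0.5 FPKM in every library before L2C with a mean of at least 5 FPKM in an L2C group, a set chosen after its values were seen and described with no test. Their knockout means ranged from 4.19% to 89.9% of control with a median of 28.0%, and none exceeded its control. Lck at 4.19% and Tor1b at 5.41% were the lowest, followed by Gm3183 at 6.52%, Kif3c, a kinesin, at 9.19%, Stmn3 at 10.5% and Fgf4, a growth factor of the early embryo, at 11.2%. In all, 33 of the 37 were under 50% of control and 4 were under 10%. Most of the 37 entered the set through their control mean alone, so low percentages follow in part from how it was chosen. Lck and Tor1b were themselves chosen by this contrast, so their place at the low end is not a separate result.

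**Figure D2:**
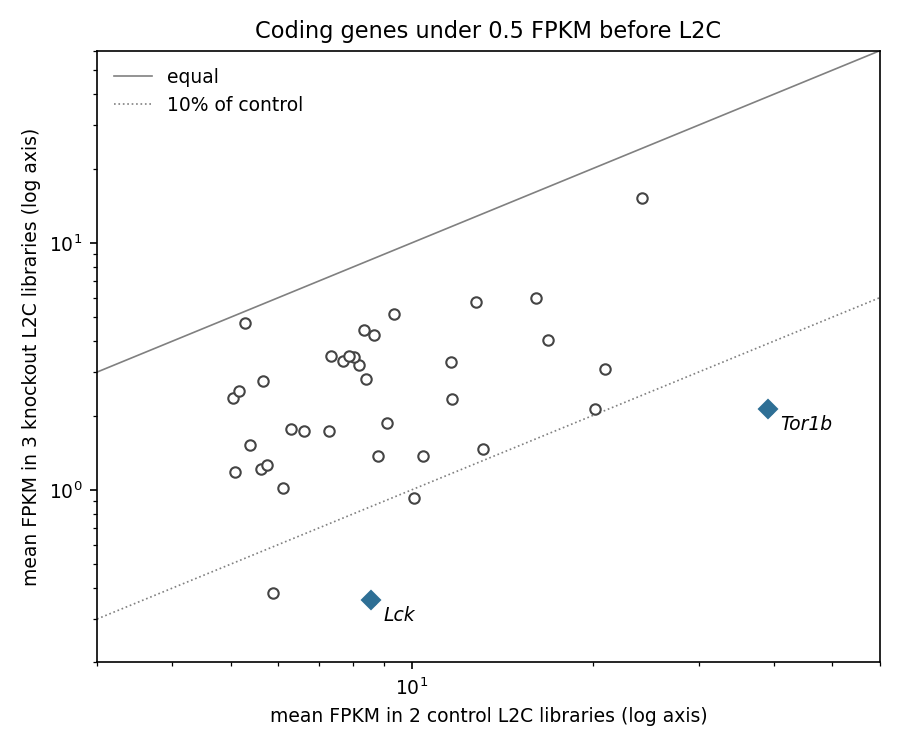
Mean FPKM at L2C in controls (x axis) and knockouts (y axis), both on log axes, for 37 coding genes under 0.5 FPKM in every earlier library, with lines at equal levels and at 10% of control. All 37 lie below the line of equal levels and 4, Tor1b and Lck among them, lie below the 10% line.

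The genes whose values followed Tor1b most closely over the 26 early libraries were Bbc3, which encodes the pro-apoptotic protein PUMA, S1pr5, a receptor for sphingosine-1-phosphate, Iqub, Plekhg6 and Bri3bp, each with a Pearson r of 0.99 on the log2 scale among 15184 genes. Bri3bp measured 4.68 and 5.25 FPKM in L2C controls and 0.680, 0.674 and 0.724 FPKM in L2C knockouts. Those closest to Lck were Slc5a11, a sodium-coupled inositol transporter, at 0.99, then Mgat3, a glycosyltransferase, Frrs1 and Iqub at 0.98, and Tor1b itself at 0.97. Slc5a11 measured 2.49 and 2.61 FPKM in L2C controls and 0, 0.483 and 0.199 FPKM in knockouts. Bbc3, the closest to Tor1b, measured only 1.43 and 1.66 FPKM in L2C controls and 0.269, 0.245 and 0.390 FPKM in knockouts. Apart from Tor1b, each of these matches passed the filter through the 2 L2C controls alone, so r rests largely on those libraries. These correlations are a description: all genes share the same libraries, and the values come from a jump at 1 stage.

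Tor1a, the founding torsin, had the reverse course, abundant in oocytes and declining afterwards in both genotypes. Control libraries measured 181 and 160.4 FPKM in FGO, 185 and 177 FPKM in MII, 135 and 129 FPKM in L1C, 96.9, 81.5 and 96.3 FPKM in E2C, and 55.5 and 60.2 FPKM in L2C. Knockout libraries measured 189, 199.8 and 191 FPKM in FGO, 191, 202 and 195 FPKM in MII, and 156, 163 and 143 FPKM in L1C. Later they measured 109, 113 and 98.5 FPKM in E2C and 59.4, 72.8 and 67.4 FPKM in L2C. Every knockout lay above every control from FGO to E2C, as did 20.5%, 24.1%, 26.3% and 17.5% of the genes tested at FGO, MII, L1C and E2C, and the groups overlapped at L2C.

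The fall of Tor1a passed the test at each step after MII. From MII to L1C it was -0.46 ± 0.07 (SE) in controls and -0.35 ± 0.06 (SE) in knockouts, at adjusted p of 0.00120 and 0.00284 in limma, where 18.0% and 12.0% of genes were called lower. Controls fell by 0.52 from L1C to E2C and by 0.65 from E2C to L2C, and knockouts by 0.52 and 0.68, on the log2 scale. The adjusted p in limma was 0.00152 or less for these 4 steps, in which 31.3% and 23.9% of genes were called lower in controls and 30.8% and 19.8% in knockouts.

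The knockout effect on Tor1a was small and not called at any early stage in limma with adjustment over all genes. It was 0.18 ± 0.08 (SE) at FGO with an adjusted p of 0.216, 0.11 ± 0.06 at MII (0.243), 0.22 ± 0.07 at L1C (0.0824), 0.22 ± 0.11 at E2C (0.241) and 0.20 ± 0.11 at L2C (0.204). The share of genes called in either direction was 8.34%, 12.0%, 14.9%, 10.1% and 38.5% at these stages. At L1C the adjusted p was 0.0427 without knockout replicate 3. The interval of the L2C effect ran from -0.06 to 0.45, so the nearest neighbour of Tor1b was not shown to be reduced.

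Tor2a, a torsin that acts in the secretory pathway, was low until E2C and present at L2C. Controls measured 2.92 and 4.40 FPKM in FGO, 2.78 and 3.26 FPKM in MII, 1.08 and 0.524 FPKM in L1C, and 0.945, 1.06 and 2.08 FPKM in E2C. Knockouts measured 4.10, 3.72 and 3.88 FPKM in FGO, 4.00, 3.83 and 2.31 FPKM in MII, 2.02, 0.835 and 1.21 FPKM in L1C, and 1.501, 0.976 and 2.23 FPKM in E2C. The genotypes overlapped at each of these stages, and the adjusted p of the difference in limma was 0.753, 0.777, 0.353 and 0.820 in order of stage.

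At L2C Tor2a measured 15.5 and 11.5 FPKM in controls and 5.60, 5.19 and 6.57 FPKM in knockouts. All 3 knockouts lay below both controls, as in 30.6% of the genes tested, at 42.7% of the control mean. The log2 difference of -1.09 ± 0.18 (SE) had an adjusted p of 0.00268 in limma, and Tor2a was the only one of the 3 paralogues called at L2C, beside 38.5% of all genes. The rise from E2C to L2C passed the test in both genotypes, with 2.64 ± 0.27 (SE) in controls (adjusted p = 5.82e-06) and 1.43 ± 0.24 (SE) in knockouts (adjusted p = 3.95e-04) in limma, where 30.7% and 29.3% of genes were called higher. The knockout effect at L2C was lower than at E2C by 1.21 ± 0.36 (SE) on the log2 scale, with an adjusted p of 0.0379 in the interaction test of limma, where 7.89% of genes were called in this direction. That call was lost in 9 of 11 fits without a single library, with a pseudocount of 0.1 and with TPM scaling, and the adjusted p over all alternatives lay between 0.00982 and 0.167. Ttc16, which overlaps Tor2a, measured 1.42 and 0.881 FPKM in L2C controls and 1.08, 0.525 and 0.861 FPKM in knockouts, under Tor2a in each of these 5 libraries.

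Tor3a, an interferon-inducible torsin, was under 1 FPKM in every library before L2C and so below the filter on low values there. In L1C the controls measured 0.0323 and 0 FPKM and the knockouts 0.467, 0.347 and 0.503 FPKM. The knockouts lay above the controls, as in 26.3% of the genes tested at L1C. With no filter the adjusted p in limma was 0.0494, and 0.165 with no call when all 26 libraries shared 1 fit. With TPM scaling Tor3a passed the filter through its knockouts alone, so no test is given. At L2C the controls measured 3.46 and 1.51 FPKM and the knockouts 2.08, 1.58 and 1.46 FPKM. These overlapped, at a log2 difference of -0.31 ± 0.29 (SE) and an adjusted p of 0.426 in limma, and the sign turned to 0.11 without control replicate 1. From E2C to L2C Tor3a rose by 1.26 in controls and by 0.94 in knockouts on the log2 scale. These steps are given with no test because Tor3a passed the filter through L2C libraries alone.

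**Figure D3:**
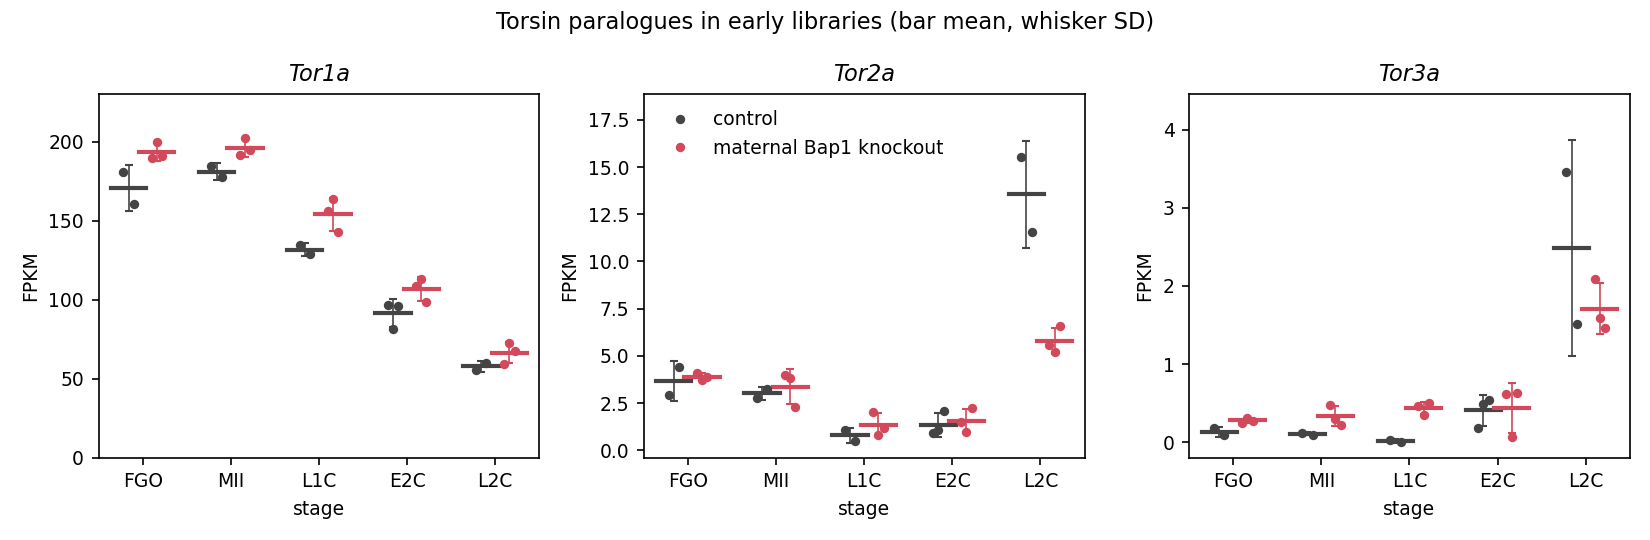
FPKM of Tor1a, Tor2a and Tor3a in each of the 26 early libraries by stage and genotype, with bars at the group mean and whiskers of 1 SD, on linear axes that differ between panels. Tor1a declines in both genotypes, and Tor2a separates them at L2C, where controls measured 15.5 and 11.5 FPKM and knockouts 5.19 to 6.57 FPKM.

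The makeup of the torsin family at L2C followed from these values. Before L2C Tor1a held between 97.0% and 99.2% of the summed FPKM of the torsins Tor1a, Tor1b, Tor2a, Tor3a and Tor4a in every library. In L2C controls the mean shares were 51.0% for Tor1a, 34.4% for Tor1b and 11.9% for Tor2a. In L2C knockouts they were 87.0%, 2.71% and 7.61%, and the summed level was 76.5 FPKM against 113 FPKM in controls. Tor1a was thus first in order in both genotypes, while Tor1b came next in controls and behind Tor2a in knockouts.

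Of the torsin cofactors, Tor1aip1, which encodes LAP1, was lower in L2C knockouts and Tor1aip2, which encodes LULL1, was not called. Tor1aip1 measured 14.1 and 13.9 FPKM in controls and 5.00, 3.65 and 4.89 FPKM in knockouts. Its log2 difference of -1.45 ± 0.18 (SE) had an adjusted p of 7.05e-04 in limma, where 19.5% of all genes were called lower. Tor1aip2 measured 9.77 and 11.5 FPKM in controls and 8.99, 8.74 and 8.95 FPKM in knockouts, with an adjusted p of 0.243 in limma. For both genes every knockout lay below both controls, as in 30.6% of the genes tested. Neither was called at an earlier stage. Tor4a, the remaining torsin of that sum, stayed under 1 FPKM in all early libraries.

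A list of 19 nuclear envelope genes, in which torsins work, held 16 tested at L2C, of which 5 fell and 3 rose, beside 19.5% and 19.0% of all genes, with a median of -0.28 beside 0.03 for all genes. Over the alternatives between 2 and 6 were called lower and between 1 and 3 higher. Lemd3, an inner membrane protein, fell from 10.1 to 4.59 FPKM (-0.99), Sun1, a bridge between nucleus and cytoskeleton, from 31.9 to 16.2 FPKM (-0.94), and Chmp4b, which seals membranes, from 29.6 to 18.8 FPKM (-0.63). Lmnb1 and Chmp2a were the others that fell, and Ankle2, Vps4a and Lbr rose. Chmp4b was not called in 4 of 13 alternatives, at adjusted p between 0.0527 and 0.108 in limma, TPM scaling and leaving out control replicate 1 among them. Before L2C no stage had more than 2 of the 15 to 17 tested called in 1 direction, beside 8.34% to 14.9% of all genes called in either direction.

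Among the relatives and partners of Lck, Yes1 alone was called at L2C, where 38.5% of all genes were called. Of 10 SRC family and CSK-type kinases, 5 were tested at L2C, with a median of -0.10. Yes1, a widely expressed SRC kinase, rose from 8.78 to 14.7 FPKM (0.67 ± 0.17, SE, adjusted p = 0.0165 in limma), a call lost without either control replicate, without knockout replicate 2 or 3, with no filter and with the replicate block (adjusted p between 0.0502 and 0.0969). When all 26 libraries shared 1 fit, Csk and Frk were called lower. Fyn, the most abundant SRC kinase here, measured 47.9 FPKM in controls and 44.7 FPKM in knockouts, and Csk, which inhibits SRC kinases, 10.4 and 7.99 FPKM (adjusted p = 0.483 and 0.127). Of 15 genes that act with LCK at the T cell receptor, 5 were tested at L2C and none was called. Ptpn22 was called higher and Ptpn6 lower when all 26 libraries shared 1 fit. Of the same 15, 2 were called lower at FGO (6 tested), at MII (5 tested) and at L1C (5 tested). At E2C 1 was called in each direction (5 tested), as for the kinase list (6 tested). The share of all genes called was 8.34%, 12.0%, 14.9% and 10.1% at FGO, MII, L1C and E2C.

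Markers of other cells were looked at beside these results, and their part in them was not tested. Of 11 T cell and leukocyte markers, 2 passed the filter at L2C and none was called in limma. Their summed level was 3.27 to 3.94 FPKM in L2C controls and 4.32 to 5.32 FPKM in knockouts. Cd3d, Cd3e and Ptprc were at 0 in all 5 libraries. Cd4 measured 1.78 and 1.70 FPKM in controls and 2.098, 2.41 and 1.92 FPKM in knockouts. Laptm5 measured 0.293 to 1.54 FPKM and Cd5 0.108 to 0.777 FPKM, with overlapping groups, and Cd3g, Cd247, Cd2 and Cd8a at most 0.659 FPKM. Coro1a, an actin-binding protein of leukocytes, measured 0.697 and 0.740 FPKM in controls and 0.160, 0.166 and 0.274 FPKM in knockouts, so its groups lay apart in the same direction as those of Lck. Of 9 cumulus and granulosa markers none passed the filter at L2C. Their summed level was 1.78 to 2.53 FPKM in L2C controls and 0.550 to 1.36 FPKM in knockouts. The sum was also lower in knockouts at every earlier stage, with 7.18 to 8.42 FPKM in FGO controls and 2.64 to 3.50 FPKM in FGO knockouts. From FGO to E2C 1 of the 9 was tested at each stage and called lower in limma, beside 8.34% to 14.9% of all genes called in either direction.

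Most oocyte and 2-cell markers were higher in L2C knockouts, where 19.0% of all genes were called higher. Of 8 oocyte markers 5 rose and none fell, among those that rose Gdf9 from 66.0 to 151 FPKM, Bmp15 from 120.4 to 221 FPKM and Oosp1 from 224 to 355 FPKM, and the summed level was 479 to 504 FPKM in controls and 778 to 908 FPKM in knockouts. Zp3, a coat protein of the egg, measured 15.4 and 15.2 FPKM in controls and 9.21, 9.84 and 13.4 FPKM in knockouts, without overlap. It was not called (adjusted p = 0.0579 in limma) but was called lower in 4 of 13 alternatives. Of 6 genes that mark the 2-cell stage 5 rose at L2C, among them Zscan4c from 4.47 to 27.1 FPKM, Zscan4d from 8.02 to 36.0 FPKM and Zfp352 from 32.7 to 105 FPKM. Their summed level at L2C was 148 to 149 FPKM in controls and 308 to 407 FPKM in knockouts, while at E2C it was 199.5 to 265 FPKM in controls and 79.7 to 173 FPKM in knockouts. The sums therefore moved with genotype at the same stage at which Tor1b and Lck differed, and their part in that difference was not tested.

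Of 6 genes within 100 kb of Tor1b, 5 passed the filter at L2C, with Ptges among them through its controls alone. The log2 differences of the other 4 were -0.80 for BC005624, -0.62 for Fnbp1, -0.26 for Usp20 and 0.20 for Tor1a. The median of all genes was 0.03. Ptges, a prostaglandin E synthase that starts 23.1 kb away on the other side from Tor1a, measured 2.07 and 2.03 FPKM in controls and 0.119, 0.129 and 0.274 FPKM in knockouts. Its log2 difference was -1.38, given with no test because Ptges passed the filter through its 2 controls alone, and like Tor1b it was under 0.5 FPKM in every library before L2C. Of the other 4, BC005624 had a log2 difference of -0.80 ± 0.27 (SE) at an adjusted p of 0.0451 in limma, beside 19.5% of all genes called lower, and the call was not made in 9 of 12 alternatives. Tor1a, Usp20 and Fnbp1 were not called.

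Of 13 genes within 100 kb of Lck, 9 were tested at L2C, and 2 were lower and 1 higher, beside 19.5% and 19.0% of all genes, with a median of -0.18. Tmem234 had a log2 difference of -1.01 ± 0.26 (SE), Txlna, which binds syntaxins, of -0.58 ± 0.13 (SE), and Ccdc28b of 0.95 ± 0.25 (SE), at adjusted p of 0.0170, 0.00840 and 0.0192 in limma. Each of these calls was lost without at least 1 of the control replicates. Hdac1, a histone deacetylase whose end lies 5631 bases from Lck, measured 53.9 FPKM in controls and 42.6 FPKM in knockouts, with an adjusted p of 0.0749. Before L2C, 0 of 4 tested neighbours of Tor1b were called at any stage, and at most 1 of the 7 or 8 of Lck in 1 direction. Between 8.34% and 14.9% of all genes were called at these stages, and so few neighbours cannot be told apart from that share.

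**Figure D4:**
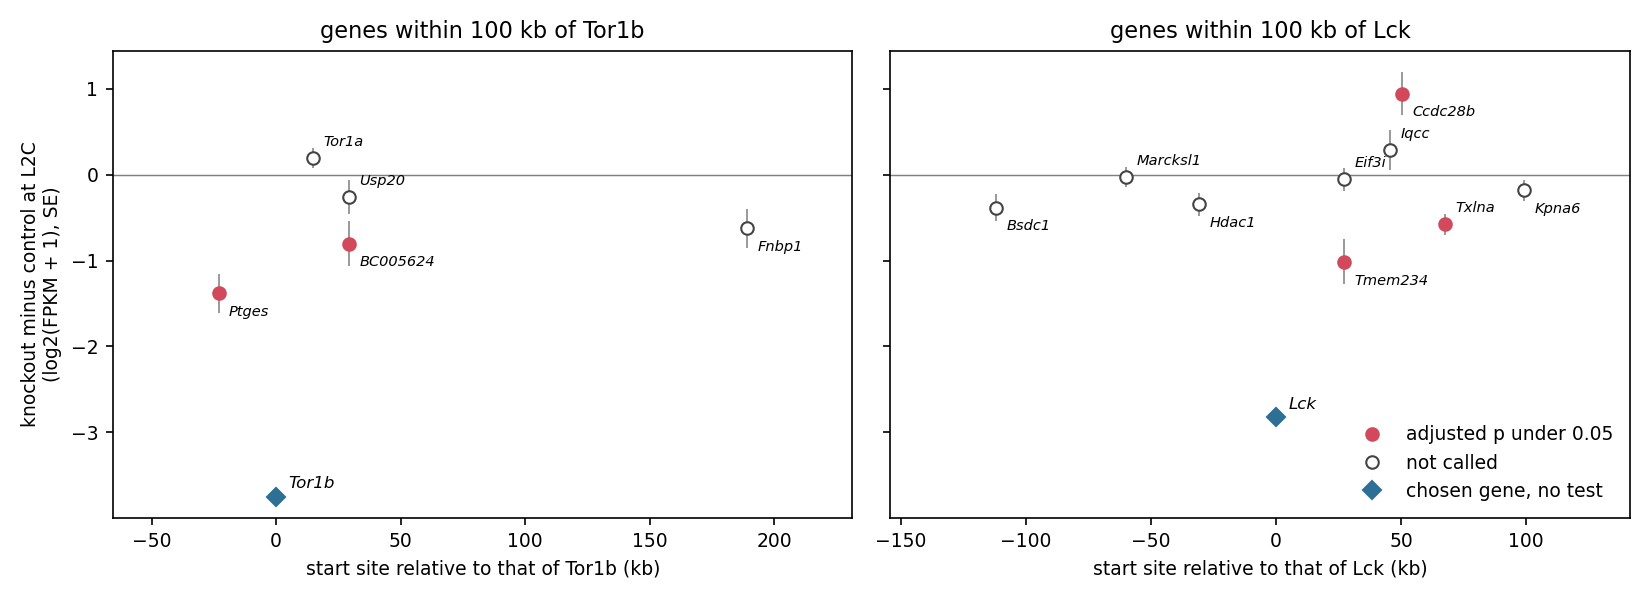
Difference between knockout and control at L2C on the log2(FPKM + 1) scale, with whiskers of 1 SE, for genes within 100 kb of Tor1b and of Lck that passed the filter, against the distance of their start sites in kb along the chromosome. Tor1b at -3.75 and Lck at -2.82 are drawn without a test. Both were chosen by this contrast, so their place below the neighbours follows from that choice. Ptges at -1.38, which passed the filter through its controls alone, is the lowest neighbour. It is drawn with an SE and in the colour of called genes, but no test is given for it.

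At embryonic day 6.5 both genes were present in maternal knockouts. Bap1 RNA was also present in these, so they do not show the 2 genes in tissue without Bap1. It measured 22.6 and 14.1 FPKM in control and 21.8 and 33.8 FPKM in knockout EPI. In VE Bap1 measured 14.0 and 15.6 FPKM in controls and 18.3 and 19.4 FPKM in knockouts. In EXE it measured 21.8 FPKM in the control and 24.0 and 23.1 FPKM in the knockouts. Tor1b measured 17.3 and 10.1 FPKM in control and 22.5 and 14.4 FPKM in knockout EPI, and 3.84 and 7.64 FPKM in control and 8.62 and 6.51 FPKM in knockout VE. In EXE the control measured 14.0 FPKM and the knockouts 14.6 and 9.31 FPKM. Genotypes overlapped in all 3 lineages. The knockout effect was 0.42 ± 0.45 (SE) in EPI, with an interval from -0.59 to 1.43, and 0.39 ± 0.45 (SE) in VE, from -0.62 to 1.41, at an adjusted p of 1 in limma for both.

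Lck measured 15.8 and 17.0 FPKM in control and 18.7 and 12.1 FPKM in knockout EPI, and 21.9 FPKM in the control and 23.7 and 28.6 FPKM in the knockouts of EXE. In VE it was low, at 1.13 and 0.541 FPKM in controls and 1.39 and 0.212 FPKM in knockouts. The knockout effect was -0.12 ± 0.45 (SE) in EPI, with an interval from -1.13 to 0.89, and -0.09 ± 0.45 (SE) in VE, from -1.10 to 0.92, again at an adjusted p of 1 in limma. The early and late libraries were made by different methods, and their levels were not compared.

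The paralogues showed no called effect in these lineages either. Tor1a measured 48.9 to 68.6 FPKM in all 8 EPI and VE libraries. Tor2a measured 13.2 to 17.3 FPKM in EPI and 36.0 to 64.6 FPKM in VE. Tor3a was at most 0.256 FPKM in VE, and in EPI it measured 6.02 and 13.0 FPKM in controls and 15.1 and 22.1 FPKM in knockouts, which did not overlap, as for 14.6% of genes. Its EPI effect of 0.96 ± 0.43 (SE) had an unadjusted p of 0.0510 and an adjusted p of 1 in limma. In EPI 0 of 13376 genes (0.0%) were called, with 306 at an unadjusted p under 0.05, and in VE 1 was called (0.00748%), with 170 at an unadjusted p under 0.05.

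**Figure D5:**
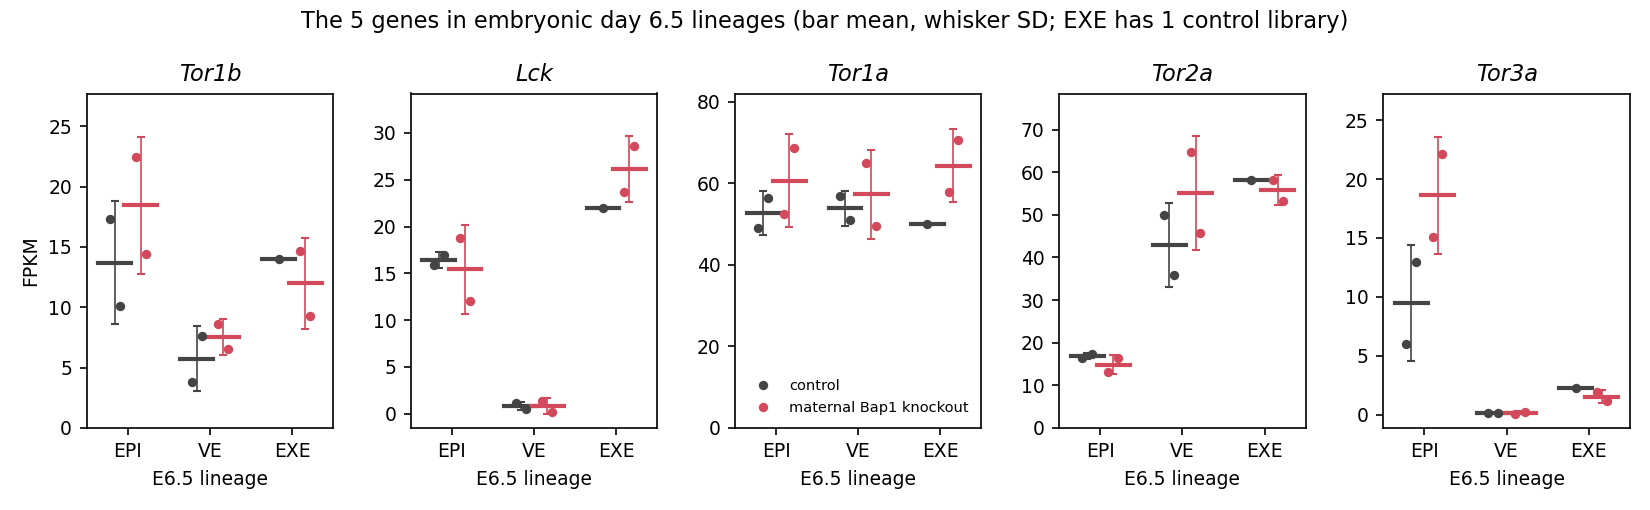
FPKM of the 5 genes in the 11 libraries of embryonic day 6.5 by lineage and genotype, with bars at the group mean and whiskers of 1 SD where a group has 2 libraries, on linear axes that differ between panels. Tor1b and Lck are present in knockouts of EPI and EXE, at 22.5 and 14.4 FPKM for Tor1b and 18.7 and 12.1 FPKM for Lck in EPI.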

How the data were processed

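The deposited values are FPKM, 1 column per library, in 1 table for the total RNA libraries and 1 for the polyadenylated libraries. The submitters' processing notes name Trim Galore 0.6.6, STAR 2.7.9, StringTie 2.1.7 and the build mm10. Whether counting used the strand, which annotation was used and what total FPKM was scaled to are not given in the sources used here. The deposited column of control EPI replicate 1 was recorded under an other unit because it lists Gm24888 below 0. That 1 value was set to 0. Of 55401 genes, 55141 matched GENCODE M21, which gave symbols and positions.

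The members and gene lists were chosen with earlier results of these data known. From the deposited FPKM, log2(FPKM + 1) was computed, and a gene entered a fit when 2 or more of its libraries reached 1 FPKM. The tests used lmFit and eBayes (with trend) of limma 3.58.1 under R 4.3.3, with each early stage fitted alone, steps and their differences in fits of the 2 stages, and EPI with VE in 1 fit, with Benjamini-Hochberg adjustment over all genes and a threshold of 0.05. EXE, with 1 control, was described only. Intervals are 95% intervals of limma. Besides the 5 genes, genes named were the neighbours of Tor1b and Lck in order, at most 3 per list that passed the test with libraries that did not overlap, those most alike by Pearson r, and genes within 100 kb. Lmnb1, Chmp2a, Ankle2, Vps4a, Lbr, Fyn, Csk, Frk, Ptpn22, Ptpn6, Zp3, Tor1aip2, Ttc16 and single T cell markers were named after their values were seen. The scripts were tested on simulated data. Tables and plots were made in Python 3.11.15 with pandas 2.3.3 and matplotlib 3.10.9. Alternatives were a pseudocount of 0.1, TPM scaling, median centring, no filter, a filter on a mean of 5 FPKM, 1 fit of 26 libraries, eBayes without trend, a replicate block and leaving out each replicate. The replicate block for steps and differences between stages, leaving out replicates there, and the set of genes silent before L2C were chosen after seeing the data.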

Additional observations from a re-analysis of the deposited data

Results flagged for a closer look

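The difference of the knockout effect between consecutive early stages was tested for Tor1a and Tor2a, and it passed for Tor2a from E2C to L2C. For Tor3a no such test is given, because it passed the filter through L2C libraries alone. The effect on Tor2a was 0.12 ± 0.29 (SE) at E2C and -1.09 ± 0.18 (SE) at L2C, and the difference of -1.21 had an adjusted p of 0.0379 in limma. That call was lost in 9 of 11 fits without a single library, at adjusted p up to 0.167, with a pseudocount of 0.1 (0.102) and with TPM scaling (0.0938). Tor2a was lower in 3 of 3 knockout libraries than in both controls at L2C, as in 30.6% of the genes tested.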

How the results depend on the processing

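Tor1b at L2C kept its direction under every alternative, between -4.28 with a pseudocount of 0.1 and -3.48 with a library left out. Lck was -4.65 with a pseudocount of 0.1 and -3.56 with TPM scaling, and -2.996 to -2.62 with a knockout library left out. Without either control Lck fell below the filter, so how far its value depends on a single control is not given. Tor2a at L2C was called in limma under all alternatives. The difference of its effect between E2C and L2C was -1.40 with a pseudocount of 0.1 and -1.28 with TPM scaling, neither called, and -1.42 to -1.01 without single libraries, with 9 of 11 of these not called.

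The effect on Tor1a was called at L1C with the replicate block (0.28) and at E2C in 1 fit of 26 libraries (0.22). Leaving out single libraries moved Tor1a at L1C from 0.18 to 0.28. The ranges were -0.14 to 0.32 for Tor2a at FGO, -0.0059 to 0.29 at MII and -0.056 to 0.33 at E2C, and -0.72 to 0.11 for Tor3a at L2C. In EPI they were -0.41 to 0.18 for Lck and -0.00078 to 0.38 for Tor1a. In VE they were -0.023 to 0.81 for Tor1b, -0.58 to 0.40 for Lck, -0.12 to 0.27 for Tor1a and -0.039 to 0.15 for Tor3a. Near Lck, Marcksl1 turned to 0.11 with TPM scaling, 0.00045 with median centring, and ran from -0.0902 to 0.037 without single libraries. Eif3i turned to 0.088 with TPM scaling and 0.0029 with the replicate block, and ran from -0.21 to 0.10 without single libraries. The causes were not tested.

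Calls over all genes moved more, but the number of genes tested also differed between settings. At L2C they ran from 3180 of 28527 (no filter) to 6419 of 15184 (1 fit) beside 4893 of 12718. At E2C the same settings gave 165 of 27899 and 4407 of 15184 beside 1193 of 11780. The L1C calls ran from 762 of 26868 (no filter) to 2193 of 11096 (replicate block) beside 1657 of 11096. MII went down to 555 of 6855 (mean of 5 FPKM) beside 1364 of 11357. FGO went down to 105 of 11560 (replicate block) beside 964 of 11560. Without control replicate 2, FGO kept 15. A group left with 1 library is assumed to vary like the others.

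Correlations of deviations of libraries sharing a number lay between -0.09 and 0.17 at the early stages, so the numbers were not taken to pair libraries there. They were 0.61 in EPI and 0.46 in VE, where 2 pairs are too few to decide and the labels name nothing shared. With the replicate block no effect on the 5 genes was called in EPI or VE, at adjusted p of 0.697 for Tor1b and 0.498 for Tor3a in EPI. Steps of Tor1b and Lck before L2C were below the filter, so their alternatives were not run. Read depth is unknown, so values near 0 cannot be given a counting error.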
